A study of Homo sapiens with 6 samples.

Results

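Collagen chain genes were examined in subcutaneous tumours of U87-EV, a human glioblastoma line, grown in mice treated with bevacizumab or saline. All probe sets were taken that the array annotation pairs with a single gene symbol of the form COL, number, A, number. This gave 43 of the 19775 genes so annotated, read by 112 of 41097 probe sets. No probe set for COL17A1 was analysed here. The RNA was hybridised to 6 Affymetrix human arrays of 1 colour, 3 in each group.

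The hosts were female BALB/c SCID mice, an immunodeficient strain, aged 6 to 8 weeks when U87 cells were implanted under the skin together with Matrigel, a basement membrane preparation. Both groups carried U87-EV tumours, and the labels do not say what EV stands for. Dosing began at a tumour volume of 150 to 200 mm3 in 5 mice per group. The bevacizumab group received 10 mg/kg of this antibody against human VEGFA into the peritoneum at intervals of 3 days, the control group received saline, and treatment in both ended at a tumour size of roughly 15 to 30 mm. Nothing in the labels ties an array to its own mouse, and p-values therefore cover array-to-array spread that may be technical in part. The host keeps its own vessels and connective tissue, and mouse RNA was not separated from tumour RNA on these human probes.

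Collagens are trimeric proteins whose chains wind into a triple helix. Fibrillar collagens (types I, II, III, V, XI, XXIV and XXVII) form or regulate the banded fibrils of connective tissue. Type IV collagen forms the network of basement membranes, including those of blood vessels, where endothelial cells and pericytes both contribute to it. The remaining types decorate fibrils, form other filaments and networks, anchor epithelia or sit in the cell membrane. Prolyl and lysyl hydroxylases modify the chains before secretion, and lysyl oxidases crosslink them afterwards.

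The type IV genes are shown first as DNA, because they are arranged in pairs and the measured changes are given by pair. In the RefSeq start-site table (GRCh38.p14) COL4A1 and COL4A2 lie head to head on chromosome 13, transcribed away from each other, with 126 bases between their starts. COL4A6 and COL4A5 are arranged in the same way on chromosome X with 379 bases between the nearest starts, as are COL4A4 and COL4A3 on chromosome 2 with 418 bases. The table held a window for 31 of the 43 genes, and for 18 of the 25 genes that were tested. The first sequence below is the whole stretch between COL4A1 and COL4A2 (chr13:110307158-110307283, plus strand, the sense of COL4A2). The second holds the 250 bases before the start of COL4A5 (chrX:108439588-108439837, plus strand). The others are the 250 bases before a listed start of COL5A1 (chr9:134641553-134641802, plus strand) and before COL12A1 (chr6:75206054-75206303, minus strand), 2 genes that rose. Capitals mark the CCAAT box, the GC box GGGCGG, the TATA box TATAAA and also ACGTG and GCGTG, on either strand, and in COL5A1 a GGGCGG match and an ACGTG match, both on the opposite strand, adjoin.
COL4A1-COL4A2 gap: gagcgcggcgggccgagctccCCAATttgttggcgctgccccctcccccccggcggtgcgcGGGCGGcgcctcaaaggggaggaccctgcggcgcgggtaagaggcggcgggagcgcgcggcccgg
COL4A5 upstream: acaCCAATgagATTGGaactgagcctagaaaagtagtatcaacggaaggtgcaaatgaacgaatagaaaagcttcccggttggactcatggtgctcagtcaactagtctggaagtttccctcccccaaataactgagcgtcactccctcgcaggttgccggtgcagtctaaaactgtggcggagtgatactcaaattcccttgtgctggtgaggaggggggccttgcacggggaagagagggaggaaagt
COL5A1 upstream: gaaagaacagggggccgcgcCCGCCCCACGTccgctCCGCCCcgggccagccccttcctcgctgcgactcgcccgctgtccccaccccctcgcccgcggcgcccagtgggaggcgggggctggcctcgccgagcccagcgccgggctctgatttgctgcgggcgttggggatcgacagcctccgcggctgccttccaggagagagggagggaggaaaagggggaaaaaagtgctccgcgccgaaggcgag
COL12A1 upstream: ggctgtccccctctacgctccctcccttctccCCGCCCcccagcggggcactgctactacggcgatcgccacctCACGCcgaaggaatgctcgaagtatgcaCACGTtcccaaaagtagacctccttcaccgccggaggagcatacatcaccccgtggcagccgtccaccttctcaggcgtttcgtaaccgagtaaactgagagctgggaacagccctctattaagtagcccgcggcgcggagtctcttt

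The COL4A1-COL4A2 stretch was 80.2% G and C and held 1 CCAAT and 1 GGGCGG, whereas the stretch before COL4A5 was 51.2% G and C with 2 CCAAT and no GGGCGG. The core letters of the element bound by hypoxia-inducible factors, ACGTG and GCGTG, were found once each before COL12A1, and ACGTG once before COL5A1. Neither was in the 126 bases between COL4A1 and COL4A2, a shorter stretch than the 250 bases of the others. The 300-base window of COL4A2, which fell, held 1 GCGTG, and that of COL4A1 held neither. COL21A1, which fell, held GCGTG in 1 window, and COL10A1, which rose, held neither in any window. Of 35116 windows of 300 bases in the table (250 before and 50 after a start), 34.6% held CCAAT, 45.0% GGGCGG, 11.5% TATAAA, 21.4% ACGTG and 36.5% GCGTG. Of the 18 tested collagens with a window, 4 held ACGTG and 7 held GCGTG in at least 1 window, some genes having several. These matches describe letters and do not show that a factor binds.

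Values are the deposited GCRMA values, log2 expression estimates per probe set, with the brightest probe set standing for each gene. A level cannot be compared between genes, because each probe set has its own response, so the comparisons are between groups. Where 2 chains are set against each other, it is the change of their difference between groups that is given, and how far the response of each probe set shapes it was not tested. The test took genes whose mean on the 6 arrays reached 4, namely 25 collagens among 10233 genes. The other 18 stayed at or under 3.41 on every array, and 14 of them lay within 0.1 of the lowest value in the table, 2.23, throughout. Those 18 are COL2A1, COL24A1, COL4A3, COL4A4, COL6A5, COL6A6, COL8A2, COL9A1, COL9A2, COL9A3, COL18A1, COL19A1, COL20A1, COL22A1, COL23A1, COL25A1, COL26A1 and COL28A1. Cartilage-type COL2A1 and the type IX chains, and COL4A3 and COL4A4 of kidney and lung basement membranes, were therefore not measurable in either group. A mean of 4.07 for COL14A1 was the closest above the filter and 3.17 for COL8A2 the closest below it.

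Among the 25 tested collagens, 3 rose after bevacizumab (COL5A1, COL12A1 and COL10A1) and 4 fell (COL4A1, COL4A2, COL3A1 and COL21A1), by limma with a Benjamini-Hochberg adjusted p under 0.05 over all genes. That is 28.0% of the collagens against 19.1% of all genes tested. In the upward direction it is 3 of 25 beside 9.09% of all genes, and in the downward direction 4 of 25 beside 9.97%. The median log2 fold change, bevacizumab minus control, was -0.03 over the collagens and -0.01 over all genes. The groups did not overlap for 14 of the 25, or 56.0%, against 41.0% of all genes. At an unadjusted p under 0.05 there were 7 higher and 6 lower, where 35.8% of all genes passed. None of the 7 calls held in all 6 fits that left out 1 array: without control 1 or control 2 no collagen passed, although 7 and 5 were higher and 4 and 5 lower at an unadjusted p under 0.05. Without control 3, 2 passed, COL21A1 and COL11A1, both lower. Without bevacizumab 2 the numbers were 2 higher and 1 lower, without bevacizumab 1 they were 4 and 2, and without bevacizumab 3 they were 1 and 3. No collagen passed with no filter on dim genes, or with an RNA quality measure from ACTB (given below) as a covariate. With replicate number as a block only COL10A1 and COL3A1 passed.

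**Figure D1:**
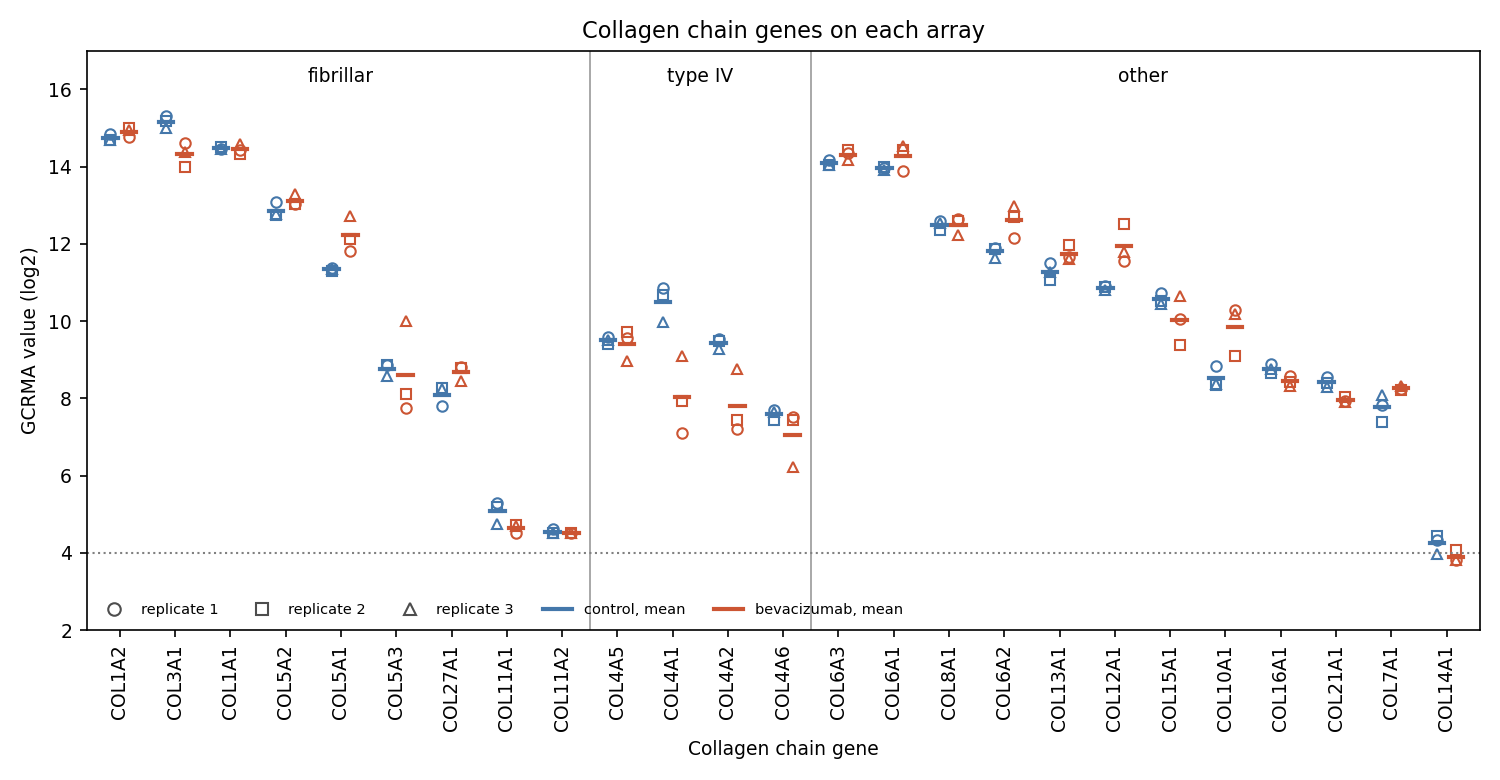
GCRMA values (log2) of the 25 tested collagen genes on each of the 6 arrays, split into fibrillar, type IV and other chains; open symbols are arrays, bars are group means of 3 arrays, and the dotted line is the filter at 4. The COL4A1 arrays lie between 9.97 and 10.86 in controls and between 7.10 and 9.11 after bevacizumab, while those of COL1A1 lie between 14.32 and 14.58 in both groups.

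The main basement membrane chains fell. COL4A1, the chain that supplies most copies to the common type IV trimer, read 10.86, 10.67 and 9.97 on controls 1, 2 and 3 and 7.10, 7.93 and 9.11 on bevacizumab 1, 2 and 3. All 3 bevacizumab arrays were below the lowest control, and control 3 and bevacizumab 3 came nearest to each other. This was 5.47-fold lower, a log2 fold change of -2.45 with an SE of 0.52 (limma adjusted p = 0.0264). COL4A2, its partner in the same trimer, read 9.54, 9.50 and 9.27 on the controls and 7.20, 7.45 and 8.75 after bevacizumab. Again bevacizumab 3 was the highest of the treated arrays and the groups did not overlap. It was 3.11-fold lower, at -1.64 on the log2 scale with an SE of 0.40 (adjusted p = 0.0381).

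Each of these genes has a second probe set, and both showed the same pattern. The dimmer COL4A1 probe set fell from 8.17 ± 0.40 to 5.37 ± 1.16 (SD, n = 3 each), with an adjusted p of 0.0301 from limma over all probe sets tested, and the dimmer COL4A2 probe set from 6.89 ± 0.34 to 5.21 ± 0.64 (adjusted p = 0.0294). Probe sets of a gene read the same RNA and are not replicates. Leaving out control 1, control 2, control 3 or bevacizumab 2 ended the call of COL4A1. Each of these, or bevacizumab 1, ended that of COL4A2. Neither gene passed with no filter on dim genes (limma adjusted p = 0.142 for COL4A1 and 0.180 for COL4A2) or with replicate number as a block. The 3' to 5' difference of ACTB, a sign of RNA quality, averaged 1.38 ± 0.26 on the control arrays against 1.81 ± 0.16 on the treated ones (SD, n = 3 each; exact permutation p = 0.2), with 1.66 on control 3 and 1.64 on bevacizumab 3. The same difference for GAPDH averaged -0.12 ± 0.02 against -0.02 ± 0.03, with groups that did not overlap (exact permutation p = 0.1, no smaller p being possible). In a fit that adds the ACTB term the COL4A1 change was -1.17 (adjusted p = 0.246) and the COL4A2 change -0.87 (adjusted p = 0.367).

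The second head-to-head pair did not pass the test. COL4A5, a chain of several epithelial and glomerular basement membranes, read 9.58, 9.41 and 9.51 on the controls and 9.57, 9.71 and 8.97 after bevacizumab, a difference of -0.08 with a 95% interval from -0.57 to 0.40 (limma adjusted p = 0.791). COL4A6, its head-to-head neighbour and a partner chain, read 7.71, 7.44 and 7.64 and then 7.53, 7.44 and 6.22. Its difference was -0.54 with an interval from -1.40 to 0.32 (adjusted p = 0.317). Bevacizumab 3 had the lowest value for both, and the other treated arrays lay within or close to the control range. These intervals allow decreases of some size, and the direction for COL4A5 turned to 0.14 without bevacizumab 3. Over the 4 tested type IV chains, 2 fell, none rose (none higher at an unadjusted p under 0.05) and the median was -1.09, where 9.97% of all genes fell and 9.09% rose.

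The chains of 1 trimer need not change by the same amount, which was examined as the difference between partner chains on each array. COL4A1 minus COL4A2 averaged 1.06 ± 0.33 on the controls against 0.25 ± 0.31 on the treated arrays (SD, n = 3 each), so COL4A1 fell by 0.81 more on the log2 scale. The 3 bevacizumab values, from -0.10 to 0.49, lay below the 3 control values, from 0.69 to 1.32. The two-sided exact permutation p was 0.1, the smallest that 3 arrays against 3 can give, and 0.14 when adjusted over 7 partner pairs. COL4A5 minus COL4A6 changed by 0.45, with non-overlapping groups and the same p-values. The same held for COL5A1 minus COL5A2 (0.63), COL6A1 minus COL6A2 (-0.49) and COL11A1 minus COL11A2 (-0.40, both near the filter). Groups overlapped for COL1A1 minus COL1A2 and COL6A1 minus COL6A3. Against the fibrillar chain COL1A1, COL4A1 changed by -2.42 (-3.98 ± 0.46 in controls and -6.40 ± 0.93 after bevacizumab, exact permutation p = 0.1), and no array of one group entered the range of the other.

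**Figure D2:**
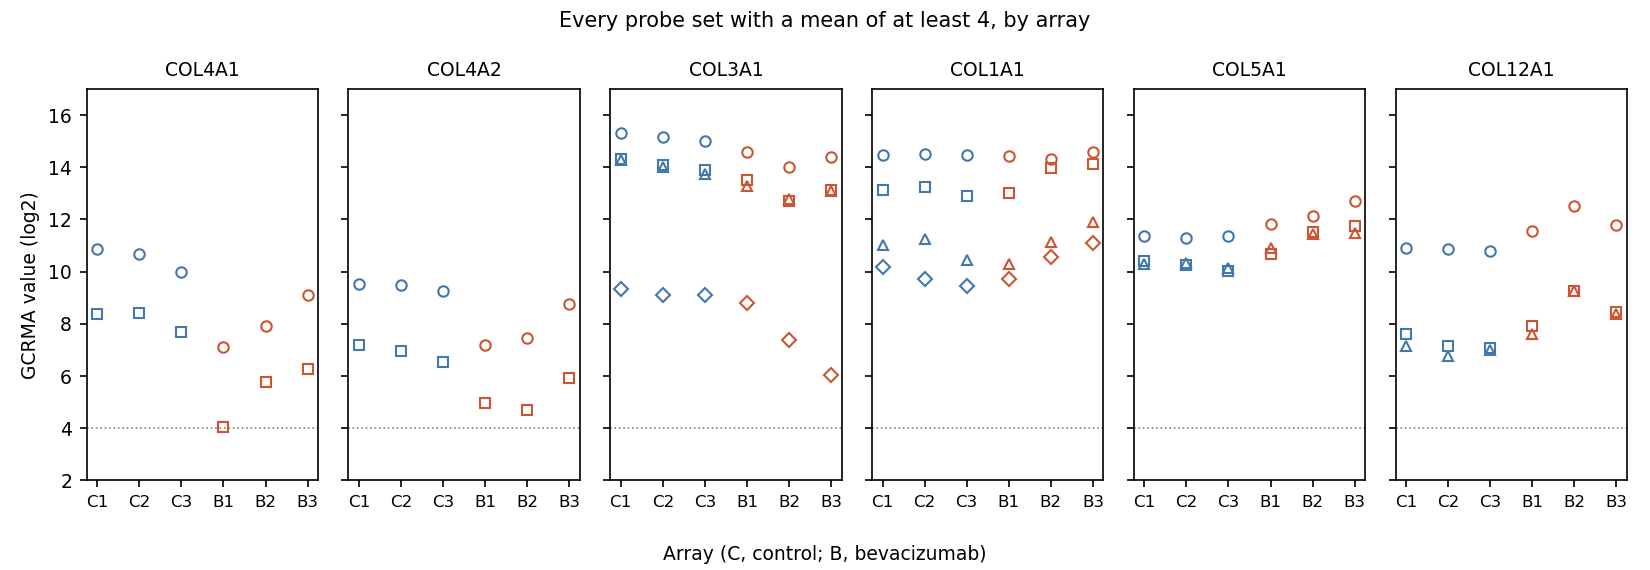
GCRMA values (log2) of every probe set with a mean of at least 4 for 6 collagen genes; each symbol shape is 1 probe set, blue is control (C) and orange bevacizumab (B). All probe sets of COL4A1, COL4A2, COL3A1, COL5A1 and COL12A1 differ between group means in the direction of the brightest one, while those of COL1A1 differ by -0.03, 0.61, 0.20 and 0.67.

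Single fibrillar chains changed in both directions. Of 9 tested, COL5A1 rose, COL3A1 fell and 7 did not pass, with a median of -0.03 (0.29 when all probe sets of a gene were averaged). That is 22.2% called, beside 19.1% of all genes. COL1A1, the main chain of type I collagen, read 14.46, 14.51 and 14.46 on the controls and 14.43, 14.32 and 14.58 after bevacizumab. The difference was -0.03 with a 95% interval from -0.26 to 0.20 (limma adjusted p = 0.838), and the groups overlapped. On its 3 other probe sets above the filter the differences were 0.61, 0.20 and 0.67, none past the threshold (adjusted p from 0.211 to 0.783 over all probe sets). COL1A2, the other type I chain, had a difference of 0.17 with an interval from -0.08 to 0.43 (adjusted p = 0.274). The difference between the 2 type I chains changed by -0.21 (exact permutation p = 0.3; adjusted p = 0.35).

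COL3A1, the type III chain of soft and vascular connective tissue, read 15.31, 15.17 and 15.01 on the controls and 14.60, 14.00 and 14.39 after bevacizumab. The groups did not overlap, and the decrease was 1.78-fold (-0.84 on the log2 scale with an SE of 0.18, limma adjusted p = 0.0258). It was lower on 4 of its 4 probe sets above the filter, by 0.98, 0.96 and 1.79 on the others. Each control, and bevacizumab 3, was needed for the call.

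Type V collagen nucleates type I and III fibrils and limits their width. COL5A1, its main chain, read 11.37, 11.30 and 11.35 on the controls and 11.81, 12.13 and 12.72 after bevacizumab, so every treated array was above every control. It rose 1.84-fold, by 0.88 on the log2 scale with an SE of 0.23 (limma adjusted p = 0.0435), and 3 of 3 probe sets differed in that direction. Each control, and bevacizumab 2, was needed for the call. COL5A2, its partner, had a difference of 0.26 (interval -0.08 to 0.59, adjusted p = 0.233) on the brightest probe set and 0.77 on the other (adjusted p = 0.0410 over all probe sets). COL5A1 minus COL5A2 rose by 0.63 on the arrays (exact permutation p = 0.1; adjusted p = 0.14).

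COL5A3, the third type V chain, had the widest spread of all tested collagens among treated arrays (SD 1.22, n = 3). It read 8.86, 8.88 and 8.57 on the controls and 7.74, 8.11 and 10.01 after bevacizumab. Bevacizumab 1 and 2 lay below and bevacizumab 3 above all controls, and its second probe set gave 6.65, 6.99 and 9.14 on the same arrays. The difference of -0.15 (interval -1.55 to 1.25, limma adjusted p = 0.875) thus averages opposite deviations: it was -0.84 without bevacizumab 3 (adjusted p = 0.0373), 0.29 without bevacizumab 1 and 0.11 without bevacizumab 2. Of the minor fibrillar chains, COL27A1 had a difference of 0.59 (interval 0.17 to 1.00, adjusted p = 0.0611) with non-overlapping groups. A dimmer COL27A1 probe set was 1.51 higher (adjusted p = 0.0166 over all probe sets). COL11A1 (-0.44, interval -0.83 to -0.04, adjusted p = 0.110) and COL11A2 (-0.03, interval -0.22 to 0.16, adjusted p = 0.785) lay near the filter, with means of 4.86 and 4.53, and did not pass. COL11A1 passed as lower without control 3.

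**Figure D3:**
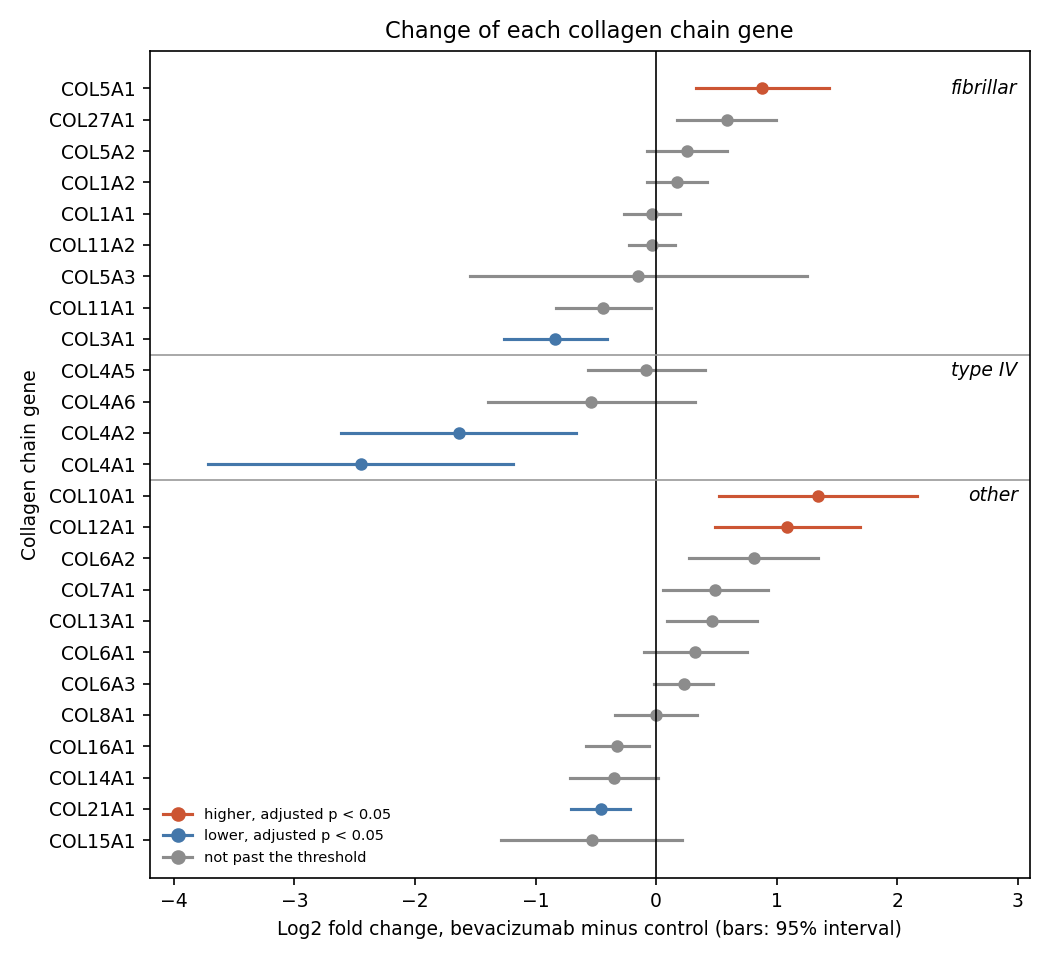
Log2 fold change of each tested collagen gene, bevacizumab minus control, with its 95% interval from limma (n = 3 arrays per group), grouped by class; colour marks an adjusted p under 0.05. Type IV chains run from -2.45 to -0.08, fibrillar chains from -0.84 to 0.88 and other chains from -0.53 to 1.34.

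The 12 tested chains that are neither fibrillar nor type IV had a median of 0.28, with 2 higher, 1 lower and 9 not called, or 25.0% beside 19.1% of all genes. COL12A1 codes for a fibril-associated chain with interrupted triple helices, a kind that binds to the surface of type I fibrils. It read 10.91, 10.88 and 10.81 on the controls and 11.55, 12.52 and 11.80 after bevacizumab, with no overlap. It rose 2.13-fold, by 1.09 on the log2 scale with an SE of 0.25 (limma adjusted p = 0.0318), and 3 of 3 probe sets above the filter had that sign. Each control, and bevacizumab 3, was needed for the call. It was also lost in the setting that averages all probe sets (0.88, limma adjusted p = 0.0754) and with no filter on dim genes (adjusted p = 0.150). With replicate number as a block, or with the ACTB covariate, it did not pass either.

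COL10A1, a short-chain network collagen best known from hypertrophic cartilage, read 8.84, 8.36 and 8.36 on the controls and 10.29, 9.11 and 10.18 after bevacizumab. Every treated array was above the controls, with bevacizumab 2 the lowest. It rose 2.53-fold, by 1.34 on the log2 scale with an SE of 0.34 (limma adjusted p = 0.0414), and the second probe set was 1.71 higher. Each array other than bevacizumab 2 was needed for the call. Of the 7 chondrocyte markers, ACAN, MATN1, HAPLN1, CNMD and COMP were under the filter, and SOX9 and MATN3 were tested and did not pass. COL8A1, a related network chain found in vessel walls, had a difference of 0.00 with an interval from -0.34 to 0.34 (adjusted p = 0.991).

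COL21A1, another fibril-associated chain, read 8.56, 8.40 and 8.28 on the controls and 7.94, 8.02 and 7.90 after bevacizumab. The decrease was small and even, 1.38-fold or -0.46 on the log2 scale with an SE of 0.10 (limma adjusted p = 0.0291), on its only probe set above the filter. Each array other than control 3 was needed for the call. COL16A1 (-0.32, interval -0.58 to -0.06, adjusted p = 0.0855) and COL14A1 (-0.35, interval -0.71 to 0.02, adjusted p = 0.155), of the same kind, did not pass.

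Type VI chains, which build beaded microfilaments around cells, had positive differences that did not pass. COL6A2 read 11.90, 11.88 and 11.64 on the controls and 12.15, 12.70 and 12.99 after bevacizumab. The groups did not overlap, and the difference of 0.81 (interval 0.27 to 1.35, limma adjusted p = 0.0518) missed the threshold. It passed in 5 other settings, among them both other scalings, with adjusted p from 0.0302 to 0.0471, and without bevacizumab 1. The dimmer COL6A2 probe set, also above the filter, differed by 0.17 (limma adjusted p = 0.308 over all probe sets). COL6A1 (0.32, interval -0.10 to 0.75, adjusted p = 0.238) and COL6A3 (0.23, interval -0.01 to 0.47, adjusted p = 0.157) did not pass, although COL6A1 passed as higher without bevacizumab 1 (0.52, adjusted p = 0.0206). On the brightest probe sets COL6A1 minus COL6A2 fell by 0.49 (2.15 ± 0.12 to 1.67 ± 0.11, SD, n = 3 each; exact permutation p = 0.1; adjusted p = 0.14). COL6A1 minus COL6A3 changed by 0.09 (exact permutation p = 0.7).

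The remaining chains were a single gene of each type. COL13A1, a transmembrane chain of cell-matrix junctions, differed by 0.47 (interval 0.09 to 0.84, limma adjusted p = 0.0835). COL7A1, which forms the anchoring fibrils of skin, differed by 0.49 (interval 0.05 to 0.93, adjusted p = 0.107). COL15A1, a proteoglycan collagen of vascular basement membrane zones, read 10.73, 10.53 and 10.43 on the controls and 10.06, 9.39 and 10.64 after bevacizumab. Bevacizumab 3 was within the control range, and the difference was -0.53 (interval -1.29 to 0.22, adjusted p = 0.262). With COL7A1 and COL15A1 counted as basement membrane chains, the median of that class was -0.54.

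Counted by probe set, 53 of the 112 had a mean of at least 4, and 5 passed as higher and 8 as lower, or 24.5% against 15.4% of all 18475 probe sets tested (7.43% higher and 7.96% lower). The 5 higher were 1 each of COL5A1, COL5A2, COL10A1, COL12A1 and COL27A1. The 8 lower were 3 of COL3A1, 2 each of COL4A1 and COL4A2 and that of COL21A1. In 15 of the 16 genes with more than 1 such probe set, all of them differed in the same direction, the exception being COL1A1. No collagen probe set passed without control 1 or control 2, and 15 were higher without bevacizumab 1.

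Markers of other cells were read beside these results. Of 10 mural cell markers (pericytes and smooth muscle), 3 of 8 tested fell. RGS5 fell by 2.85, ACTA2 by 1.79 and KCNJ8 at least 3.17-fold (limma adjusted p = 0.0022, 0.00407 and 0.00482). KCNJ8 was under 4 on every treated array and reached the filter through its controls. None of the 8 was higher, also at an unadjusted p under 0.05, while 9.97% of all genes fell and 9.09% rose. PDGFRB differed by 0.30, CSPG4 by 0.16, ANGPT1 by 0.51, NOTCH3 by -0.51 and ABCC9 by -0.76, without passing. The summed level of the mural list, on the linear scale, ran from 8717 to 10958 on controls and from 3723 to 4160 after bevacizumab. The sum adds probe sets of unlike response, and ACTA2, the brightest of the list on every array, weighed most in it. MYH11 and DES were under the filter. Of 9 endothelial markers, CDH5, KDR, TIE1, EMCN, VWF, ESAM and CLDN5 were under 4 on every array, and PECAM1 and TEK did not pass; the summed level was 163 to 175 and 167 to 200. The part of mural cells in the type IV decrease was not tested, and fewer cells of a type and less RNA per cell cannot be told apart in bulk tissue. Whether human tumour cells or mouse host cells gave the signal of these markers was not tested either. Of 9 fibroblast markers, DPT rose by 2.26 and 6 tested ones did not pass (summed level 17100 to 19414 and 12639 to 21164). Of 7 macrophage markers with a probe set, CD14, CSF1R, CD163, ITGAM and MRC1 were under the filter, AIF1 differed by -0.14 without passing and ADGRE1 fell by 0.92. All 5 adipocyte and all 6 skeletal muscle markers, and KRT5, KRT14 and KRT1 of keratinocytes, were under the filter, while KRT10 averaged 11.81 and 11.79 and did not pass. Of the tumour markers, VIM and CD44 were bright in both groups without passing, NES fell by 1.18, CHI3L1 rose by 1.60, and the glial genes GFAP, S100B, OLIG2 and SOX2 were under the filter. VEGFA, which codes for the antibody's target, rose by 1.40 (adjusted p = 0.00609).

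Among genes that modify collagen chains, those that passed were all higher. Of 21 tested hydroxylases and chaperones, 9 rose, none fell (none lower at an unadjusted p under 0.05), 12 did not pass and the median was 0.47. Over all genes 9.09% rose and 9.97% fell, with a median of -0.01, and whether the list differs from the chains was not tested. With no filter on dim genes 4 of the list rose. The lysyl hydroxylase PLOD2, whose product sets stable crosslinks, read 12.59, 12.59 and 12.70 on the controls and 13.74, 13.87 and 13.78 after bevacizumab. The prolyl 3-hydroxylase P3H2, which acts on type IV collagen among others, rose by 1.85, from 7.16 ± 0.01 to 9.01 ± 0.38 (SD, n = 3 each), with an adjusted p of 0.00459 from limma. The prolyl 4-hydroxylase subunits P4HA1, P4HA2 and P4HB rose by 1.02, 0.75 and 0.71, and PLOD1 by 1.28. The collagen chaperone SERPINH1 differed by -0.09 (adjusted p = 0.708). P4HA1, P4HA2, PLOD2 and P3H2 passed whichever array was left out, and 4 or 5 genes of the list passed when a control or bevacizumab 2 was left out.

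Of 12 tested genes for propeptide cleavage and crosslinking, 6 rose and none fell, also at an unadjusted p under 0.05 (median 0.68, where 9.09% of all genes rose and 9.97% fell). With no filter 2 rose. LOX, a crosslinking oxidase, read 10.20, 10.57 and 10.62 on the controls and 12.89, 13.27 and 13.78 after bevacizumab, an increase of 2.85 on the log2 scale (limma adjusted p = 0.00265). LOXL2, LOXL4 and LOXL3 rose by 2.21, 1.81 and 1.13, TGM2, a transglutaminase, by 1.82 and PCOLCE2 by 0.69. LOXL1 differed by 0.11 and peroxidasin (PXDN), which crosslinks type IV collagen, by 0.01, and neither passed. No gene of these lists passed with the ACTB difference as a covariate, where 9 of the 21 and 5 of the 12 were higher and none lower at an unadjusted p under 0.05. In that fit PLOD2 differed by 1.11 (limma adjusted p = 0.0580) and LOX by 2.93 (adjusted p = 0.0589). The count of 6 was 2 without control 1, 3 without control 2 and 4 without control 3.

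Genes for collagen breakdown and uptake changed in both directions. Of 11 tested, 4 rose and 1 fell (median 0.28), beside 9.09% and 9.97% of all genes. With no filter 1 rose and 1 fell, and with the ACTB covariate none passed (5 higher and 2 lower at an unadjusted p under 0.05). The interstitial collagenase MMP1 read 3.49, 3.95 and 5.87 on the controls and 10.40, 9.10 and 11.19 after bevacizumab. MMP2, a gelatinase that also cleaves type IV collagen, rose by 0.61, the collagen uptake receptor MRC2 by 0.80 and the cathepsin CTSB by 0.55. The other gelatinase, MMP9, read 6.13, 6.19 and 5.85 on the controls and 2.65, 3.04 and 3.99 after bevacizumab, which is at least 4.16-fold lower (adjusted p = 0.00611). MMP9 was under 4 on every treated array and reached the filter through its controls. With a filter at 6, 10 genes of the list were tested, of which 4 rose and none fell. MMP13 had a difference of -1.95 (adjusted p = 0.0961), with 6.85 on bevacizumab 1 beside 4.32 and 4.51 on the others. Without control 2 the number higher was 1, and without bevacizumab 1 the number lower was 2. Of 5 tested collagen receptors 1 fell (9.97% of all genes) and none rose, also at an unadjusted p under 0.05. The one that fell was ITGA1, the integrin subunit that prefers type IV collagen, by 1.29 (adjusted p = 0.0109), a call lost without control 2, with no filter and with the ACTB covariate, while ITGA2, which prefers type I, differed by -0.64 (adjusted p = 0.118) and 2 fell without bevacizumab 1.

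**Figure D4:**
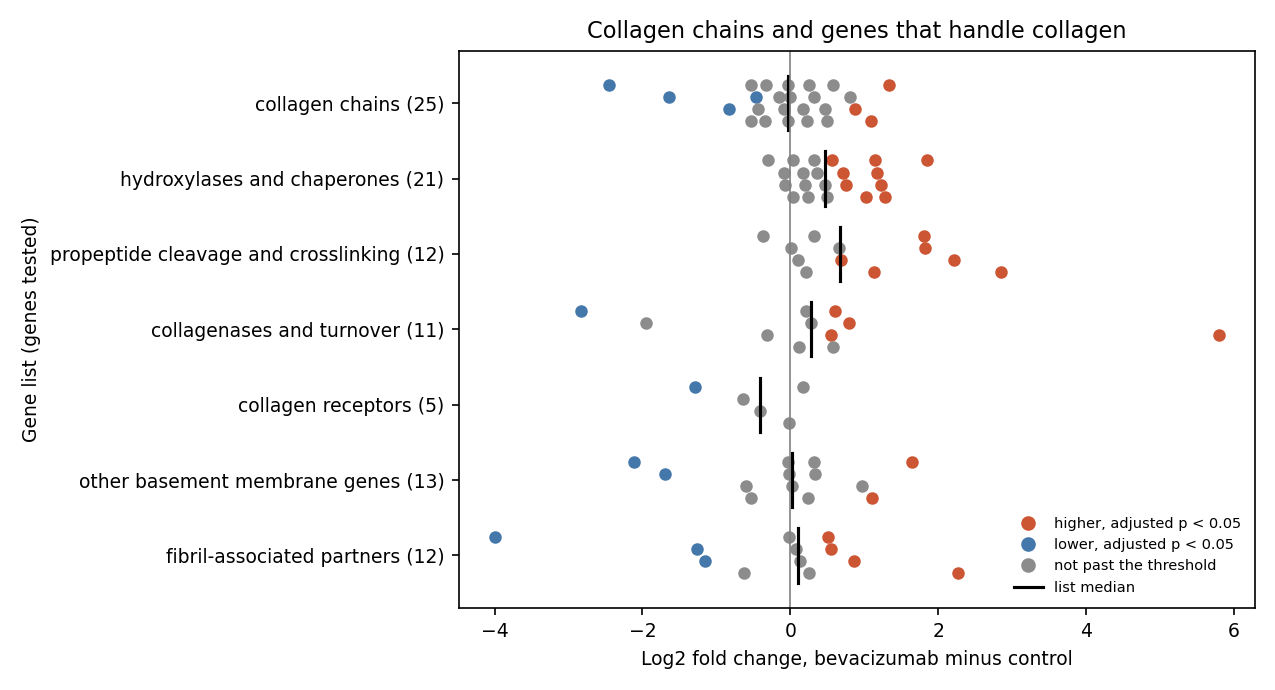
Log2 fold changes (bevacizumab minus control) of the 25 tested collagen genes and of the tested members of 6 lists of genes that handle or accompany collagen. Each point is a gene, colour marks an adjusted p under 0.05 and the black line is the list median. Among called genes, MMP1, MMP9 and OGN are drawn at fitted values that depend on values under 4, as are COL14A1 and ITGA10, not called. The medians are -0.03 for collagen chains, 0.47 for hydroxylases and chaperones and 0.68 for propeptide cleavage and crosslinking.

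Other basement membrane genes changed in both directions. Of 13 tested, 2 rose, 2 fell and 9 did not pass, with a median of 0.02, where 19.1% of all genes were called. With no filter 1 rose and none fell (4 lower at an unadjusted p under 0.05), and with the ACTB covariate none passed (3 higher and 1 lower unadjusted). The laminin chain LAMA1 read 8.31, 8.28 and 9.50 on the controls and 6.04, 6.84 and 6.88 after bevacizumab, a change of -2.11 on the log2 scale (limma adjusted p = 0.0192). NID1, which links laminin to type IV collagen, had a log2 fold change of -1.69 (adjusted p = 0.0224), and NID2 of -0.60 without passing (adjusted p = 0.0522). The heparan sulfate proteoglycan HSPG2 (perlecan) rose by 1.65 (adjusted p = 0.0228) and LAMB2 by 1.11. Neither direction held a call without control 1 or control 2. Without control 3 or bevacizumab 3 none rose, and without bevacizumab 2 none fell; with quantile normalization 4 fell.

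Among 12 tested genes for proteins that accompany fibrils, 4 rose and 3 fell (median 0.11), beside 9.09% and 9.97% of all genes. With no filter 1 rose and 1 fell, and with the ACTB covariate none passed (3 higher and 3 lower at an unadjusted p under 0.05). OGN (osteoglycin) was at least 7.12-fold lower (limma adjusted p = 0.00261), periostin (POSTN) fell by 1.16 and THBS1 by 1.26. OGN was under 4 on every treated array and reached the filter through its controls. With a filter at 6, 11 genes of the list were tested, of which 4 rose and 2 fell. The elastic microfibril gene FBN1 rose by 0.86, DPT (dermatopontin) by 2.26, THBS2 by 0.55 and BGN (biglycan) by 0.51. FN1, the fibronectin gene, differed by 0.08, and SPARC, a collagen-binding glycoprotein, by -0.01, and neither passed. Without control 1 there were 1 higher and 1 lower, and without control 2 or bevacizumab 2 there were 2 of each. Of the 32 genes called in the 6 lists, 10 passed whichever array was left out, beside 0 of the 7 collagens. The share of all called genes that did so is not given here. The count over all genes, 1950 with every array, ran from 559 to 2076 in these fits, and whether collagens differ from other genes in this was not tested.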

How the data were processed

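The authors deposited 1 table of log2 expression values for 54675 probe sets and 6 arrays. GCOS 1.1.1.052 and GCRMA are named in the submitters' processing notes, with no version of GCRMA. The log2 scale is read from the range of the values and is not stated. The number of arrays limits the precision, and no array batch is given in the sources used here.

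Probe sets with 1 gene symbol in the platform annotation were used, with symbols taken through the gene identifier for the 41043 of 41097 that matched the RefSeq gene table. A gene was read from its brightest probe set (by the 6-array mean). Genes with a mean of at least 4 entered limma 3.58.1 under R 4.3.3 (lmFit, eBayes, no covariate, two-sided, Benjamini-Hochberg over all 10233 genes); an adjusted p under 0.05 counts as rose or fell. For a group with no array reaching 4, folds are printed as at least the value against 4. Differences within an array were tested by exact permutation (two-sided). Summed marker levels add up 2 to the power of each value. The procedure was checked on simulated data. Every tested collagen is named; of each other list, the members past the threshold with the smallest p, up to 6, and further members named after their values were seen. Members and lists were chosen with earlier results of these data known. Promoter sequences are from RefSeq (GRCh38.p14).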

Additional observations from a re-analysis of the deposited data

How the results depend on the processing

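All 7 collagen calls were kept with values under 4 set to 4, quantile normalization, median centring, a filter at 6, robust trended variances and array weights; averaging probe sets kept 6. For bevacizumab versus control, all genes, the count of 1950 was 598 without a filter, 904 with the replicate block and 24 with the ACTB covariate, and 559 to 2076 without 1 array. Collagens higher and lower numbered 0 and 0 without a filter (unadjusted 7 and 5) and 0 and 0 with ACTB (unadjusted 5 and 0). With the replicate block they numbered 1 and 1, COL10A1 and COL3A1, and COL4A1, COL4A2, COL5A1, COL12A1 and COL21A1 did not pass. With a filter at 6, where fewer genes were tested, 5 were higher. Without 1 array the numbers higher and lower ran from 0 to 4 and 0 to 3. Deviations of same-numbered arrays from their group means correlated at -0.048, -0.012 and -0.053. Correlations between differently numbered arrays are not given, so these values do not settle whether replicate numbers pair arrays. Collagen probe sets higher and lower numbered 0 and 0 without a filter, and 0 to 15 and 0 to 5 without 1 array. The fibrillar median was 0.29 with averaged probe sets, 0.17 with a filter at 6, 0.21 with ACTB and -0.037 to 0.25 without 1 array. Without a filter the type IV median was -0.31 and that of other chains 0.00; adding COL7A1 and COL15A1 to type IV gave -0.54. Among chains not called, COL1A1 reversed to 0.29 with averaged probe sets, 0.041 with ACTB, and ran from -0.10 to 0.030 without 1 array. COL8A1 reversed to 0.00038 with quantile normalization and 0.046 with array weights (-0.085 to 0.12 without 1 array), COL5A3 to 0.92 with ACTB (-0.84 to 0.29), COL11A2 to 0.021 with ACTB (-0.050 to 0.000181) and COL4A5 ran from -0.23 to 0.14. COL4A1 minus COL1A1 kept its sign in each setting run. Where the text gives no reason, the cause was not tested. The 18 chains under the filter entered a test only in the setting without a filter.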
